A study of Homo sapiens with 10 samples.

Results

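TCF7L2 was followed through every assay of a study of the m6A reader YTHDF1 in HCT116 cells, a human colorectal carcinoma line. The gene was picked by its symbol, with earlier results of these data known, and is 1 of 10918 genes named in the deposited files. It has 1 row in the table of ribosome footprints and mRNA, 1 row in the list of RNAs recovered with YTHDF1, and 10 rows in the lists of m6A windows, 7 of 24452 in replicate 1 and 3 of 24815 in replicate 2. In the RefSeq table of GRCh38.p14 the gene lies on chromosome 10, from base 112950247 to base 113167678, a span of 217432 bases that gives rise to 17 listed transcripts.

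Ribosome footprints and mRNA were each sequenced from YTHDF1 knockdown cells (2 libraries) and from control cells (1 library). The knockdown libraries, titled shY1-1 and shY1-2, are called knockdown 1 and knockdown 2. The genotype field names only shY1, so whether they carry different hairpins is not settled by the labels, and no label says that they came from separate cultures. The control carried a hairpin against GFP, per the file headers. RNA bound by a YTHDF1 antibody (RIP, 1 library), its whole-lysate input (1 library) and m6A-seq (2 libraries) came from cells with the control genotype. The labels give cycloheximide, a drug that stalls translating ribosomes, at 100 ug/ml for 3 min.

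TCF7L2 encodes a DNA-binding protein of the TCF/LEF family that sits on Wnt response elements. Without a Wnt signal it is bound by corepressors of the TLE family, and when β-catenin enters the nucleus the complex activates Wnt target genes. In the intestine it is known for keeping crypt progenitor cells dividing. m6A is a methyl group on adenosines inside mRNA, and YTHDF1 is a cytoplasmic protein that binds it and is known to affect the translation of bound mRNAs.

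The m6A lists give each window as a stretch along a transcript that the files do not name, with 1 candidate methylated adenosine and the bases around it. Those bases are printed here as deposited. Every window of both lists carries 1 of 12 such motifs, so the bases by themselves are not evidence that TCF7L2 is methylated. The capital marks the candidate adenosine, and positions count from the start of that unnamed transcript, so no genome position can be given.
Window 25 to 175: gaAct
Window 250 to 300: aaAct
Window 1050 to 1300: agAcc
Window 1475 to 1525: aaAca
Window 1925 to 2250: gaAcc
Window 2300 to 2375: ggAcc
Window 3325 to 3400: gaAcc

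These are the windows of replicate 1, and 3 of the 7 overlapped a window of replicate 2 by at least 1 base: the first, the fourth and the last. In replicate 2 they ran over bases 50 to 100, 1475 to 1525 and 3325 to 3400. Their candidate adenosines were at 79, 1464 and 3376, the same positions as in replicate 1. Each candidate sits in 1 of the 12 motifs, and overlapping windows can share a motif, so equal positions are not independent support for a single base. The summits were at 1487 and 1489 in the middle window and at 3356 and 3370 in the last. Position 1464 lies outside its own window, which was so for 19.5% of windows in each list. Of the 7 motifs, 1 starts with GGAC, as did 30.7% of all windows of replicate 1 and 29.5% of replicate 2. The motif at the first position, GAACT, was given for 7.89% of all windows of replicate 1, and that of the last, GAACC, for 6.90%.

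The windows of TCF7L2 differed widely in their deposited ratio of immunoprecipitate over input signal. All listed ratios were at least 3.00, with medians of 5.63 in replicate 1 and 5.53 in replicate 2. The first window had ratios of 46.8 and 30.2, above 98.5% and 97.1% of the windows of their lists. The last had ratios of 15.3 and 8.70, above 89.9% and 74.5% of windows. The shared window from 1475 to 1525 had ratios of 3.58 and 3.37, close to the lower limit of the lists.

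Replicate 1 alone listed the window from 250 to 300, with a ratio of 51.0, and those starting at 1050, 1925 and 2300, with ratios of 3.17, 3.51 and 3.57. Among windows of replicate 1 with ratios from 3 to below 4, 59.5% of 5817 overlapped a window of the other replicate, and of TCF7L2's 4 such windows 1 did. Among windows with ratios of 20 or more, 77.0% of 1521 overlapped, and 1 of TCF7L2's 2 did. Every listed window of replicate 2 had its partner in replicate 1. The 7 windows of replicate 1 covered 975 bases and the 3 of replicate 2 covered 175 bases.

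The order by ratio was not the order by signal. Per base, immunoprecipitate signal in replicate 1 was highest in the window from 1475 to 1525, at 9.55, and in the window from 1050 to 1300, at 8.43, both with ratios under 4. It was 4.93 in the first window and 5.21 in the last. The input signal per base ran from 0.0654 in the window from 250 to 300 and 0.105 in the first window to 2.66 and 2.67 in the windows starting at 1050 and 1475. Of all windows of replicate 1, 2.49% had a lower input signal per base than the window from 250 to 300, and 3.10% had a lower one than the first. The high ratios near the transcript start therefore stood on a small denominator. The last window, with a ratio of 15.3, also had a low input signal, at 0.341 per base. Of all windows of replicate 1, 10.4% were at or below that value. The same windows in both lists carried equal input signals, in 100% of 5960 windows with identical bounds, so the replicates are not independent in their input.

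**Figure D1:**
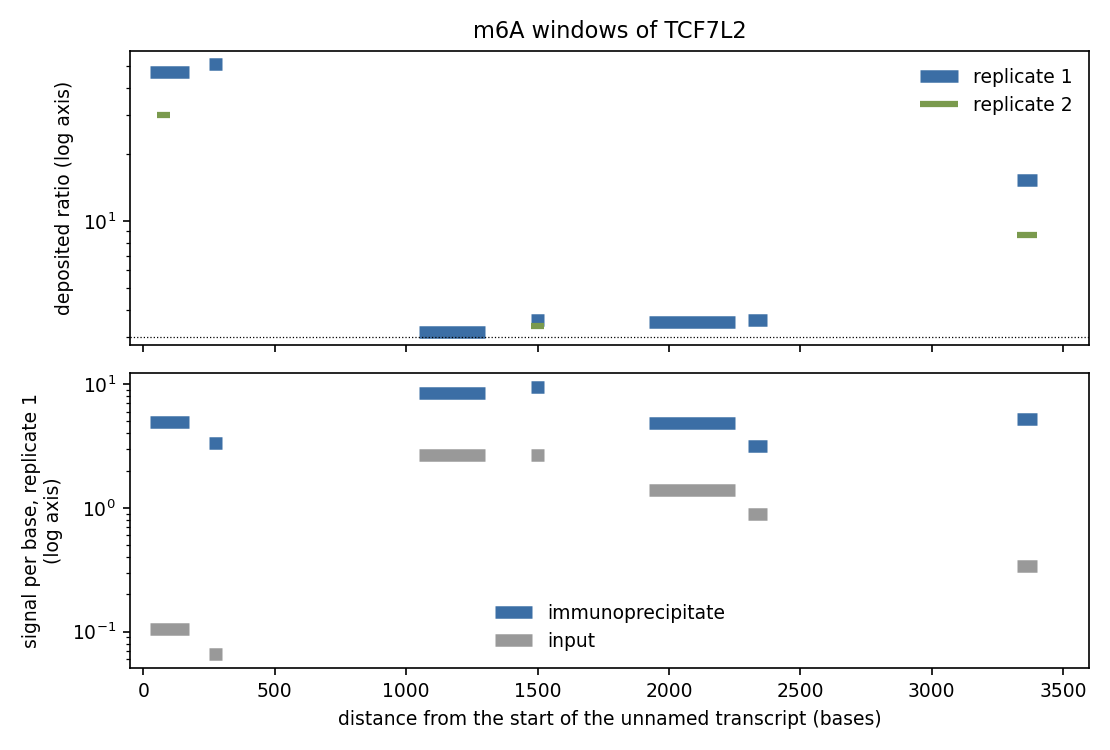
The upper panel plots the deposited ratio (log axis) of each m6A window of TCF7L2 against distance along the unnamed transcript in bases, for replicate 1 and replicate 2, with the limit of 3 dotted. The lower panel plots signal per base in immunoprecipitate and input of replicate 1 (log axis), and input is lowest in the windows from 25 to 175 and from 250 to 300, where the ratios are 46.8 and 51.0.

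In number of windows TCF7L2 stood high in replicate 1 and nearer the middle in replicate 2. Of the other listed genes of replicate 1, 96.7% had 7 windows or fewer, and of those of replicate 2, 73.7% had 3 or fewer. The median was 2 in each list. The pools that follow are of tested genes and include those with no listed window. Beside 1192 tested genes whose control mRNA value was within 2-fold of its own, the shares were 98.5% and 82.8%. Beside 962 genes with a genomic span within 2-fold, they were 92.8% and 64.9%. Beside the 73 genes close in both, they were 94.5% and 56.2%, and the median of those genes was 3 windows in each replicate. A window in both replicates was found for TCF7L2 and for 72.5% of the 6782 genes tested in the expression table. A window starting at base 50 or earlier, as TCF7L2's first one did in each list, was found in 5.62% and 5.60% of the listed genes. That limit was set from TCF7L2's own first windows, which start at 25 and 50, so its place within the limit was fixed in advance.

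In the RIP, TCF7L2 RNA stood at 68.6 FPKM in the YTHDF1 immunoprecipitate and at 36.8 FPKM in the input, and the authors' deposited ratio was 1.86. The list holds 3931 genes with ratios of 1.5 or more and inputs of 1 FPKM or more, and 35.6% of the genes tested in the expression table were on it. Of genes close to TCF7L2 in control mRNA, 28.0% were listed, and of genes close in span, 47.0%. There is 1 library on each side, so the ratio has no replicate error and no test.

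Within the list the abundance of TCF7L2 was high and its ratio low. Its input value exceeded that of 93.2% of the other listed genes, and its ratio that of 26.7%, against a median ratio of 2.28. Listed genes within 2-fold of its input had a median ratio of 2.02 (500 genes), and TCF7L2 lay above 35.6% of them. Listed genes within 2-fold of its span had a median of 2.73 (749 genes), and it lay above 19.0%. Among the 33 genes close in both, the median was 2.16 and it lay above 42.4%. These placings cover genes with ratios past the limit of the list only.

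**Figure D2:**
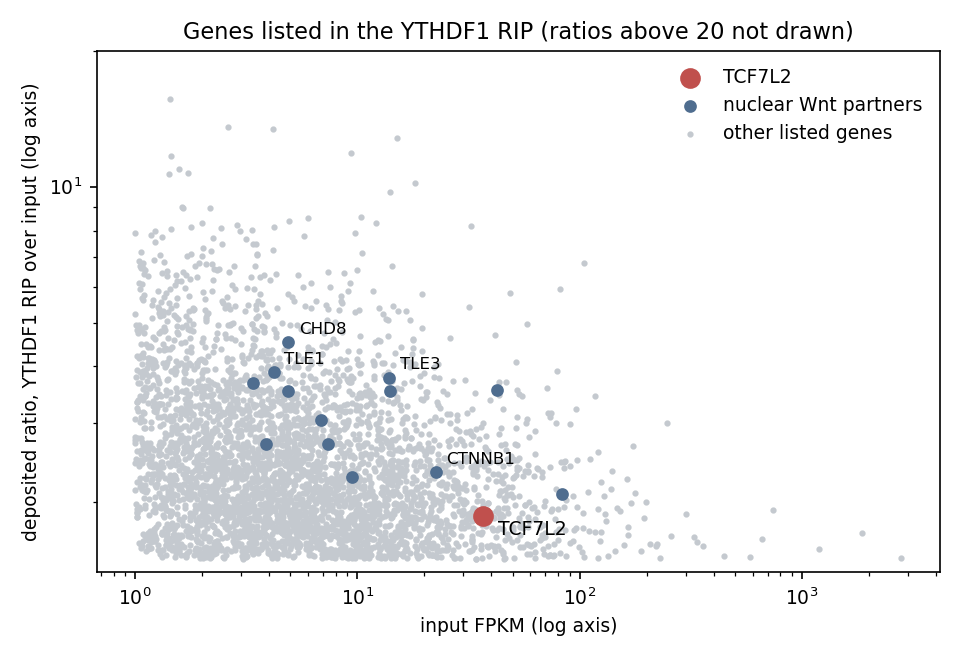
Each point is a gene listed in the YTHDF1 RIP, placed by input FPKM and by the deposited ratio over input (both log axes), with TCF7L2 and the 13 listed nuclear Wnt partners drawn larger and 14 genes with ratios above 20 left out. TCF7L2 lies at a higher input and a lower ratio than most listed genes. Its ratio of 1.86 is below those of the 13 listed partners, and partners that are not listed have no ratio to compare.

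YTHDF1 itself was lower in each knockdown library. Its footprint value was 17.0 and 19.9 in knockdown cells, against 61.4 in the control, and its mRNA value 8.62 and 7.81 in knockdown cells, against 27.4. The knockdown means were 0.301 of the control in footprints and 0.300 in mRNA. The values are relative abundances as deposited, in a unit not stated in the headers, and read depth is unknown. In bulk libraries, fewer cells holding an RNA and less RNA per cell cannot be told apart.

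Footprints on TCF7L2 mRNA had values of 42.2 in knockdown 1 and 143 in knockdown 2, against 229 in the control. Both knockdown libraries were below the control, at 0.184 and 0.625 of its value, and they stood far apart from each other. Their mean was 92.8 ± 71.6 (SD, n = 2), or 0.404 of the control value. An exact 2-sided permutation test over the 3 libraries gave p = 0.667, and the smallest p that 2 against 1 allows is 0.333.

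TCF7L2 mRNA had values of 47.8 in knockdown 1 and 89.7 in knockdown 2, against 69.8 in the control. The control lay between the knockdown libraries, which were at 0.685 and 1.29 of its value. Their mean of 68.8 ± 29.7 (SD, n = 2) was 0.985 of the control value, and the exact 2-sided permutation test gave p = 1.

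**Figure D3:**
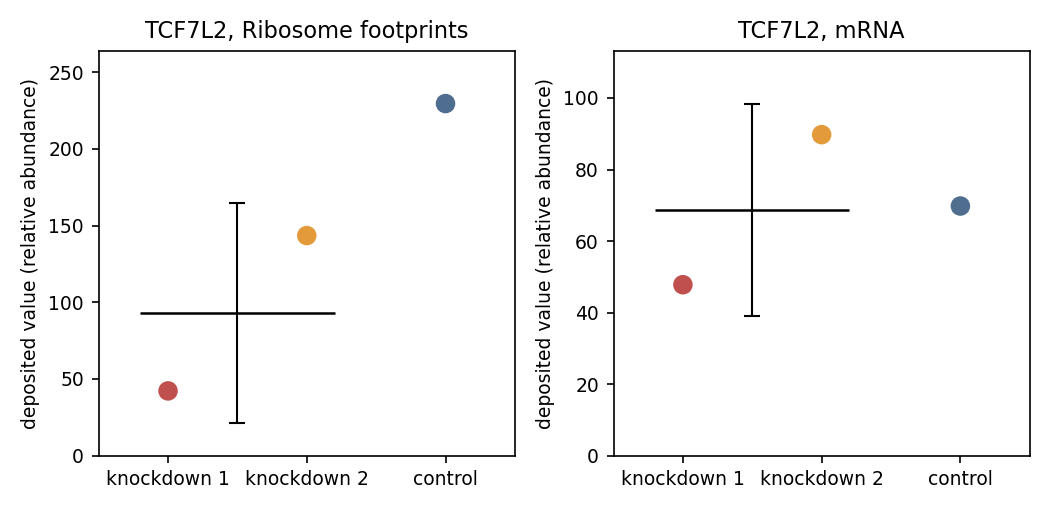
Deposited values of TCF7L2 (relative abundance, axes from 0) in knockdown 1, knockdown 2 and control are shown for ribosome footprints and for mRNA. Points are libraries, the bar is the knockdown mean with its SD (n = 2), and the control footprint value of 229 is above both knockdown values, while the control mRNA value of 69.8 lies between them.

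None of the differences passed the threshold in a limma fit across 6782 genes on the log2(value + 1) scale, with Benjamini-Hochberg adjustment at 0.05. The footprint difference was -1.54 ± 0.73 (log2, SE), with a limma adjusted p of 0.575, beside a median of -0.28 over all genes. The mRNA difference was -0.09 ± 0.73, with a limma adjusted p of 1.00. Translational efficiency, the difference in footprints less the difference in mRNA, was -1.46 ± 1.03 (SE), with a limma adjusted p of 0.996, beside a median of -0.27 over all genes. Relative to those medians, the footprint difference was -1.26 and the efficiency difference -1.18. In footprints 0.0295% of genes were called (2 genes), and in mRNA and in efficiency 0% were, while 600, 32 and 185 genes had an unadjusted p under 0.05. YTHDF1 was not called either, with a footprint difference of -1.69 ± 0.40 (SE) and a limma adjusted p of 0.552.

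Single libraries moved these values. Without the footprint library of knockdown 1 the footprint difference was -0.67 and the efficiency difference -0.58. Without that of knockdown 2 they were -2.42 and -2.33. The mRNA difference was 0.36 without the mRNA library of knockdown 1 and -0.54 without that of knockdown 2. In a fit without a footprint library each footprint arm holds 1 library, and the spread comes from the mRNA pair alone, assumed to hold for footprints. Under that assumption the limma adjusted p of the footprint difference was 0.553 without knockdown 1 and 0.0747 without knockdown 2, which says nothing on stability.

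The ratio of footprint to mRNA value, a relative measure of ribosome load, was 0.883 in knockdown 1 and 1.60 in knockdown 2, against 3.29 in the control. Among genes of similar mRNA level, TCF7L2 lay above 19.9% in knockdown 1 and above 51.4% in knockdown 2, against 71.0% in the control. The median ratios of those genes were 1.83 and 1.53 in knockdown cells, against 2.00 in the control. Relative to genes of its own level, TCF7L2 thus held a lower place in both knockdown libraries than in the control. As a share of the library total, its footprints made up 0.00449% and 0.0138% in knockdown cells, against 0.0187% in the control, and its mRNA 0.0139% and 0.0264%, against 0.0205%.

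Per library, footprints differed by -2.42 in knockdown 1, where 7 of 1192 genes of similar mRNA level lay at or below that value. They differed by -0.67 in knockdown 2, where 242 of the 1192 did. In mRNA the differences were -0.54 and 0.36, the first inside and the second above the range from the 5th to the 95th percentile of those genes, which was -0.94 to 0.57 in knockdown 1 and -0.38 to 0.31 in knockdown 2.

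Efficiency differed by -1.88 in knockdown 1 and by -1.03 in knockdown 2. Of the 1192 genes of similar level, 7 were at or below TCF7L2 in knockdown 1 and 79 in knockdown 2, where the medians were -0.11 and -0.31. By the mean of both libraries, 13 of the 1192 genes (1.09%) were at or below it, 67 of the 962 genes of similar span (6.96%), and 2 of the 73 genes close in both. Over all genes tested, 323 (4.76%) were. In knockdown 1 alone, 253 of the 6781 other genes (3.73%), 40 of the 962 and 0 of the 73 were at or below it. In knockdown 2 alone, 1004 (14.8%), 202 and 8 were. Efficiency was below the control in both libraries in 52% of all genes tested, and footprints in 51.2%, so the shared direction is common. The size placed TCF7L2 nearer the low end in knockdown 1 than in knockdown 2.

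**Figure D4:**
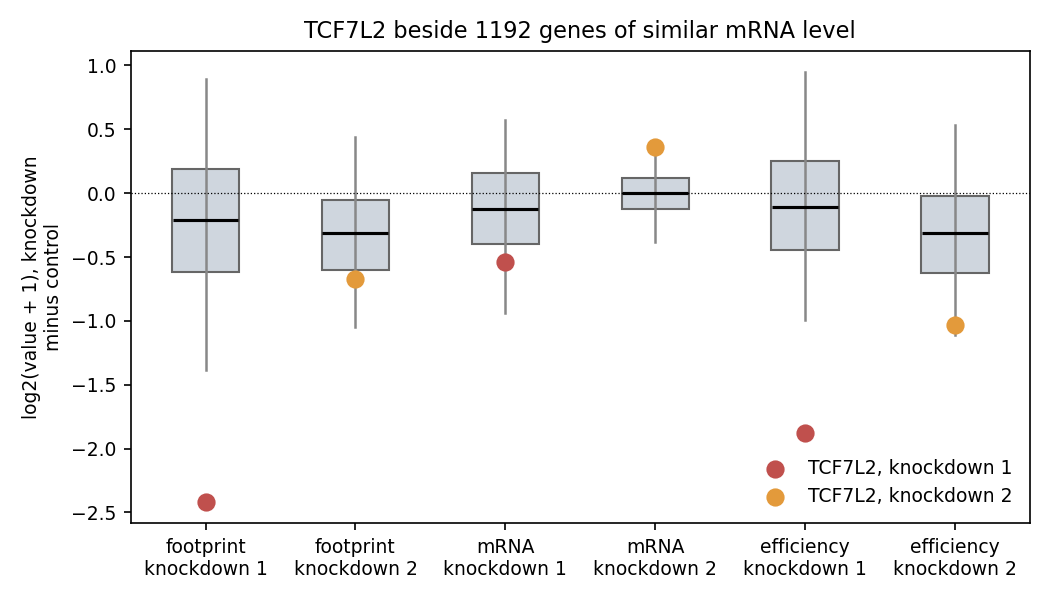
Log2(value + 1) differences, knockdown minus control, are shown for footprints, mRNA and efficiency in each knockdown library. Boxes give the quartiles and median of 1192 genes within 2-fold of TCF7L2's control mRNA, grey lines their 5th to 95th percentiles, and points TCF7L2, which lies below the grey line in knockdown 1 footprints (-2.42) and efficiency (-1.88) and inside it in knockdown 2 footprints (-0.67) and efficiency (-1.03).

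The knockdown libraries differed from each other more on TCF7L2 than on most genes. The distance between them was 1.74 on the log2 scale in footprints, larger than in 94.9% of genes tested (median 0.50), and 0.90 in mRNA, larger than in 91.1% (median 0.318). In both assays knockdown 1 was the lower one. The pattern of lower footprints in both libraries, with mRNA lower in knockdown 1 and higher in knockdown 2, was shared by 14.3% of genes.

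TCF7L2 is on the RIP list and has m6A windows in both replicates that overlap, as do 2102 (31.0%) of the genes tested. In that class 51.0% of genes had efficiency below the control in both libraries and the median difference was -0.30. In the 1686 genes with neither, the figures were 52.1% and -0.28. TCF7L2's own efficiency difference was low in its class, with 106 of 2102 genes at or below it, itself included. Its place over all genes tested was much the same, with 324 of 6782 at or below it, itself included (4.76% of the other genes). Of the 1686 genes with neither, 108 (6.41%) were at or below it, so the low place was not particular to the class. Among the 297 genes of the class that were also of similar mRNA level, 4 were at or below it, itself included, beside a median of -0.21. Leaving TCF7L2 out, that was 1.01%, beside 1.09% of all 1192 genes of similar mRNA level.

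The genes most like TCF7L2 were ranked by the root mean square distance over the 4 log2 differences to the control. All 4 differences share the control of their assay. Over all 6781 other genes the nearest were RNF219, TRAF3, B3GALNT2, PRKD3 and GPALPP1, at distances from 0.104 to 0.214, where the median distance was 1.22. RNF219, which encodes a RING finger protein, had footprint values of 3.71 and 15.9 in knockdown cells, against 24.8 in the control, and mRNA values of 2.81 and 6.28, against 5.16. TRAF3, an adaptor of TNF receptor family signalling, had footprint values of 0.224 and 3.38, against 5.32, and is on the RIP list with a ratio of 2.46. On the log2(value + 1) scale its footprint difference in knockdown 1 was -2.37, near the -2.42 of TCF7L2. Differences of low values come out too small on that scale, so the likeness of TRAF3 and other low genes rests partly on the scale. B3GALNT2 is also on the RIP list, with a ratio of 1.82, while RNF219, PRKD3 and GPALPP1 are not.

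Among genes of similar mRNA level the nearest were MAP2K2, VEGFB, PFKFB3, NT5C and KEAP1, at distances from 0.278 to 0.364, beside a median of 1.19. MAP2K2, a kinase of the MAP kinase cascade, had footprint values of 16.1 and 70.6 in knockdown cells, against 120 in the control, and mRNA values of 52.4 and 70.1, against 68.3. KEAP1, an adaptor that directs the factor NRF2 to degradation, had footprint values of 20.7 and 45.8, against 91.5, and a RIP ratio of 2.19. VEGFB, a growth factor of the VEGF family, had a RIP ratio of 1.65 and PFKFB3, an enzyme that stimulates glycolysis, one of 3.69. MAP2K2 and NT5C are not on the RIP list, which holds 28.0% of genes of similar mRNA level and 35.6% of all genes tested.

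The partners of TCF7L2 at Wnt target genes were taken as a list of 29 genes, of which 19 were tested. None of the 19 was called by limma in footprints, mRNA or efficiency, and 3, 0 and 0 had an unadjusted p under 0.05. Those 3 were BCL9, TBL1XR1 and TLE3, named after their values were seen, each with higher footprint values in both knockdown libraries. Footprints were below the control in both libraries in 11 of the 19 and above it in both in 5, beside 51.2% and 17.5% of all genes. For mRNA the counts were 5 and 3, beside 29.9% and 30.9%, and for efficiency 7 and 6, beside 52% and 18.7%. The median efficiency difference of the 19 was -0.09, beside -0.27 over all genes.

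Of the TCF/LEF family, TCF7L1, which acts mainly as a repressor, had low footprint values of 3.19 and 0.652 in knockdown cells, against 2.93 in the control. Its mRNA values were 2.55 and 3.94, against 3.80. TCF7 and LEF1 have no expression values here, and TCF7 had 2 m6A windows in replicate 1 and 3 in replicate 2.

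Among the coactivators, CTNNB1, which encodes β-catenin, had footprint values of 424 and 370 in knockdown cells, against 429 in the control. Its mRNA values of 40.8 and 50.2 stood around the control value of 44.7. Its RIP ratio was 2.33, with 52.8 FPKM in the immunoprecipitate and 22.6 FPKM in the input, and it had 4 m6A windows in each replicate. BCL9L, an adaptor that binds β-catenin, had footprint values of 21.7 and 25.7 in knockdown cells, against 41.7 in the control, and a RIP ratio of 3.53. Footprints were below the control in both libraries in 4 of the 8 tested coactivators and above it in both in the other 4. Over all genes tested the shares were 51.2% and 17.5%.

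Of the corepressors and inhibitors, 7 of 10 tested had footprints below the control in both libraries and 1 above. Those shares were 51.2% and 17.5% of all genes tested, and the median footprint difference was -0.28 in the 10 and over all genes. CTBP1, a corepressor, was the partner nearest to TCF7L2 in its pattern, at a distance of 0.606, with footprint values of 39.5 and 101 in knockdown cells, against 134 in the control. Its mRNA values were 45.8 and 109, against 120, so its efficiency differences were -0.37 and -0.27. NLK, a kinase that phosphorylates TCF/LEF proteins, had footprint values of 3.26 and 3.81, against 6.66. TLE3, a corepressor of the family that binds TCF7L2 directly, had footprint values of 105 and 54.5 in knockdown cells, against 34.2, and efficiency differences of 1.67 and 0.91.

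CHD8, a chromatin remodeller that inhibits β-catenin activity, had footprint values of 19.6 in knockdown 1 and 1228 in knockdown 2, against 1275 in the control. Its mRNA values were 12.4 and 10.9, against 10.2. It was the 1 partner with a lower mean efficiency difference than TCF7L2, and that place rests on knockdown 1 alone. In the RIP, 13 of the 29 partners were listed, with ratios from 2.09 to 4.53 and a median of 3.52, beside 2.28 over all other listed genes. Partners that are not listed have no ratio, so their place relative to TCF7L2 is not known. Except for SMARCA4 (42.7 FPKM) and DAXX (83.1 FPKM), the listed partners had lower inputs than TCF7L2 (36.8 FPKM). Of the 19 tested partners 8 were listed, beside 35.6% of all genes tested. CHD8 had the highest of these ratios, followed by TLE1 at 3.88 and TLE3 at 3.78. m6A windows in both replicates were found for 20 of the 29, and for 14 of the 19 tested, beside 72.5% of all genes tested.

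**Figure D5:**
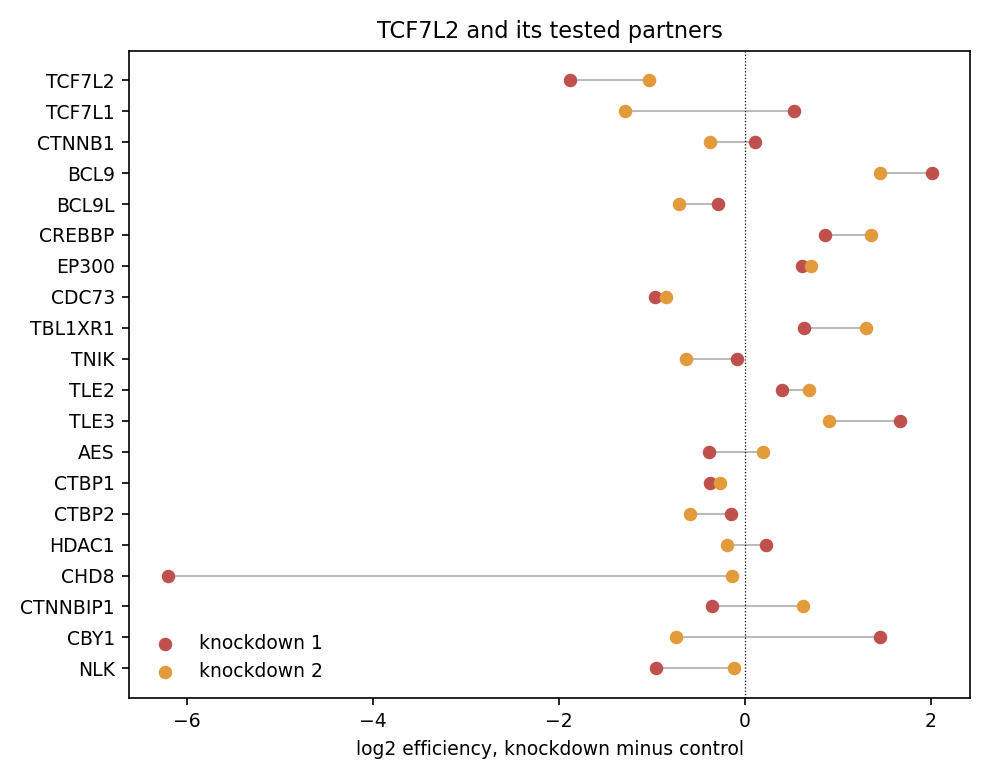
Log2 efficiency differences, knockdown minus control, are shown for TCF7L2 and its 19 tested partners, with 1 point for each knockdown library and a line joining them. TCF7L2 lies at -1.88 and -1.03, and CHD8 at -6.21 and -0.14 has the widest gap between the libraries.

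The epithelial identity of the cells was checked on 9 markers, of which 6 have expression values, among them EPCAM, CDH1 and KRT8, and 3 do not, CDX1 and VIL1 among them. Their summed mRNA values were 5499 and 3403 in knockdown cells, against 3920 in the control, and their summed footprint values 3149 and 1808, against 2339. Of 7 fibroblast markers 3 had values, with mRNA sums of 7.13 and 6.35 in knockdown cells, against 7.50 in the control, and footprint sums of 17.0 and 9.08, against 13.6. Of 5 blood markers CD68 alone had values, with mRNA values of 4.98 and 19.9 in knockdown cells, against 19.9 in the control. Its footprint values were 10162 and 9485 in knockdown cells, against 15090 in the control, far above its mRNA values. They were below the control in both knockdown libraries, as were those of TCF7L2 and of 51.2% of all genes tested. The epithelial sums were highest in knockdown 1, where TCF7L2 footprints and mRNA were lowest. The part of these markers in the TCF7L2 values was not tested. Library totals of the deposited values were 938928 and 1041090 for footprints in knockdown cells, against 1227320 in the control, and between 339763 and 345044 for mRNA.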

How the data were processed

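Ribo-seq, mRNA-seq, YTHDF1 RIP-seq and m6A-seq of HCT116 cells were used, grouped by the sample labels. The submitters' processing notes name STAR and GRCh38. For the versions, the counting tool and the peak caller: not given in the sources used here. Of the files, the deposited expression table holds a relative signal for each of 6926 genes, of which 12 had damaged names and were left out. Control values in it are at least 0.500 for footprints and 0.501 for mRNA. Per the file headers the RIP list gives FPKM and their ratio. The m6A lists give, per the file headers, a window signal in immunoprecipitate and input and their deposited ratio, called per replicate. Windows with an input signal of 0 (459 and 421) have no ratio.

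Tests used log2(value + 1), a scale on which differences of low genes come out too small, and took the 6782 genes whose mean over the 6 libraries reached 1. One limma-trend fit (limma 3.58.1 in R 4.3.3) had 1 mean per assay and condition and 2 residual degrees of freedom, so the lone controls are assumed to vary like the knockdown pairs. P-values measure the spread between these libraries, which may be technical. The fit was run on simulated data with larger changes than that of TCF7L2 and less noise than between these libraries. That run does not measure its power here. Percentiles and distances were computed in Python 3.11.15 with pandas 2.3.3 and SciPy 1.17.1. Spans come from the RefSeq table of GRCh38.p14, where 99.7% of tested genes had one. Only rows with the symbol TCF7L2 were taken, since its older name TCF4 is the symbol of another gene. Alternatives were other pseudocounts, filters, scalings and overlaps, a replicate block, and leaving out each knockdown library or m6A replicate in turn. Named genes were CTNNB1, the TCF/LEF family, the partners nearest in pattern or highest in RIP ratio, and the 5 genes nearest to TCF7L2 in each pool. TCF7L2 and these lists were chosen with earlier results of these data known.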

Additional observations from a re-analysis of the deposited data

How the results depend on the processing

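The footprint and efficiency differences of TCF7L2 were negative under every setting run, and none of its 3 differences had a limma adjusted p under 0.05 in any of them. Without a knockdown library that arm holds 1 sample, whose spread is taken from the other assay's pair, so p-values and calls there assume that both assays vary alike. Other pseudocounts, filters, scalings, separate fits and the replicate block gave footprint differences from -1.55 to -1.26 and efficiency differences from -1.46 to -1.18, the smaller ones with each library centred on its median. Leaving out a knockdown library gave footprint differences from -2.42 to -0.67, efficiency differences from -2.33 to -0.58 and mRNA differences from -0.54 to 0.36, so the mRNA difference turned positive without knockdown 1. With a replicate block on the knockdown number the footprint difference was -1.54 ± 0.31 (SE, limma adjusted p = 0.0754), the efficiency difference -1.46 ± 0.44 (limma adjusted p = 0.686) and the mRNA difference -0.09 (limma adjusted p = 1.00), with 30, 6 and 2 genes called. No label pairs the cultures, and the differences between knockdown 1 and 2 correlated at 0.37 between assays across 6782 genes. Genes called over all settings numbered 0 to 80 in footprints, 0 to 6 in efficiency and 0 to 2 in mRNA, with 80 without the footprint library of knockdown 2 and 8 without that of knockdown 1. Partners called numbered 0 to 1 when a knockdown library was left out. The 1 was CHD8, from single footprint values of 19.6 in knockdown 1 and 1275 in the control under that assumption. The RIP placing was the 42.4th percentile among genes close in input and span, against 35.6 by input alone and 32.5 within 1.5-fold of input. TCF7L2 had 3 windows with ratios of at least 5 in replicate 1, and from 3 to 7 windows when a replicate was left out. Its efficiency difference was at the 1.02 and 1.22 percentiles of genes within 1.5-fold and 3-fold of its mRNA level, pools chosen after seeing the data. Read depth is unknown, so counting error could not be given.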
